A study of Mus musculus with 10 samples.

Results

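The 1700 clone genes of mouse carry provisional names that begin with 1700 and end with Rik, given to genes first seen as full-length cDNA clones of an adult testis library and not yet given a functional name. A gene was taken as a member when its listed symbol fitted that pattern, which 285 of the 15507 listed genes did, and 3 of these (1700063D05Rik, 1700084D21Rik and 1700008P02Rik) were left out by the rule, so that 282 clone genes were followed. The rule used the symbol alone and no measured value. By RefSeq, 181 of them are long non-coding RNA genes, 89 are protein-coding and 12 are pseudogenes. RNA-Seq had been done on germ cells of 10 mice aged 45 days, 5 wild type (WT) and 5 homozygous knock-in (KI). In KI mice the GRTH locus holds the human sequence with the R242H change. GRTH is a testicular RNA helicase whose mouse gene is listed as Ddx25, and the comparison asks which germ cell transcripts differ when that helicase is mutated. The paper states that homozygous KI mice lack elongating spermatids and sperm because round spermatids fail to elongate. The cells were released from the testis with collagenase and trypsin and hold spermatogonia, spermatocytes and spermatids together. A lower value can therefore come from fewer cells of a type or from less RNA per cell, and these cannot be told apart. Each mouse gave 1 poly(A) library.

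Spermatogenesis runs from dividing spermatogonia through meiotic spermatocytes to haploid spermatids, which first are round and then elongate while transition proteins and protamines replace the histones of the nucleus. Testis expresses more long non-coding RNAs and more small, poorly studied protein-coding genes than most tissues, and many of them are transcribed at the meiotic and haploid stages. The polyadenylated RNA of round spermatids is stored in part in cytoplasmic granules and translated later, after transcription has stopped, and GRTH is an RNA helicase of this storage and export system.

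The reads recovered from the deposited values numbered 12722086 to 16422347 per library. A library without a read of a gene may still hold up to 3, which is worth between 2.61 and 3.62 normalized counts (counting error only). Ddx25 had 5198 to 11101 normalized counts in WT. In KI it had 146, 194 and 161 in libraries 1 to 3 and 2.88 and 1.84 in libraries 4 and 5, so that every KI library was below every WT library (limma, log2 fold change −7.84, adjusted p = 5.63e-05) and the KI libraries themselves fell into 2 sets. That value averages a log2 fold change of −5.34 in libraries 1 to 3 and one of −11.59 in libraries 4 and 5. These differed (limma interaction, adjusted p = 1.12e-10), and edgeR and DESeq2 gave −6.35 over all libraries. KI libraries 4 and 5 held no more than 3 reads of Ddx25 each, so that −11.59 and the interaction rest on values at the floor. Reads were aligned to the mouse genome, so that the Ddx25 counts need not include transcripts of the human sequence, which was not tested. The first principal component of the most variable genes held 74.1% of their variance and the second 9.75%. The second parted libraries 1 to 3 from libraries 4 and 5 in both genotypes. On the first, which parted the genotypes, WT libraries 1 to 3 lay at −26.9 to −25.9 and WT libraries 4 and 5 at −17.4 and −16.6. KI libraries 1 to 3 lay at 18.7 to 19.3 and KI libraries 4 and 5 at 25.1 and 31.6. The library sets thus differed along the first component too. What the library numbers stand for is not given in the labels, and results are therefore also given within each set of libraries.

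The clone genes were mostly lower in KI germ cells. Of the 281 clone genes tested, 113 were called lower in KI and 1 was called higher, where a call needs both an adjusted p under 0.05 (limma on log2(normalized count + 1), Benjamini-Hochberg over all genes tested) and a 1.5-fold difference. That is 40.2% lower and 0.356% higher, beside 8.22% lower and 6.13% higher over all 15389 genes tested. The median log2 fold change of the clone genes was −0.48 and that of all genes tested 0.03, and 245 clone genes had a negative value. Among the 113 called lower, 18 were at least 4-fold lower, 44 were between 2-fold and 4-fold lower, and 51 were less than 2-fold lower. By adjusted p alone, without a fold threshold, 135 clone genes were lower and 2 higher, beside 13.3% and 9.65% of all genes tested. Every KI library lay below every WT library for 114 clone genes (10.9% of all genes tested did so) and above for 1 (6.8% of all genes tested), and 95 of the 113 genes called lower were among the 114. Scaled to library totals, which moved the median of all genes tested from 0.03 to 0.25, 70 clone genes were called lower and 8 higher, beside 5.13% and 13.9% of all genes tested, and their median relative to all genes was −0.50. The 1 clone gene not tested for its low counts, 1700086O06Rik, had 9.34 normalized counts in WT and 9.31 in KI on average.

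**Figure D1:**
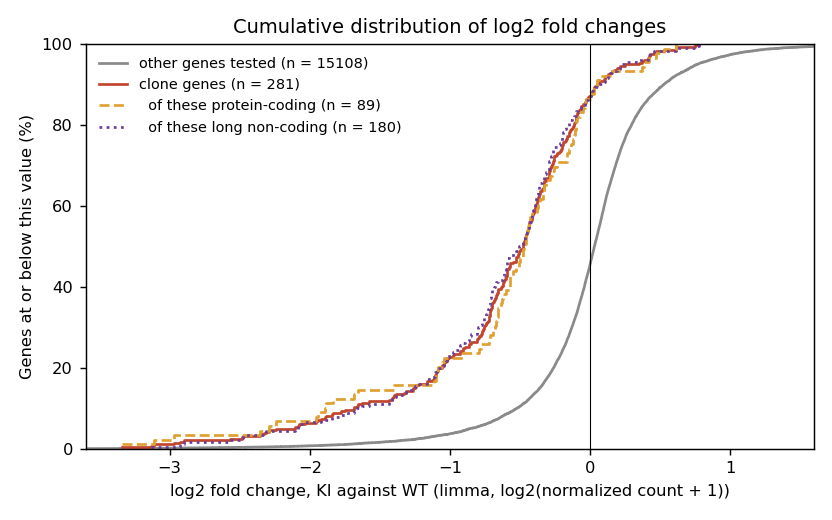
Cumulative share of genes (y axis, percent) against log2 fold change of KI over WT (x axis) for the 281 clone genes tested, their 89 protein-coding and 180 long non-coding members, and all other genes tested; each step is 1 gene, and genes beyond the x range are not drawn. The 3 curves of clone genes lie close together and to the left of the other genes, with a median of −0.48 for all 281.

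The calls were then counted by class of gene, as a description with no test between classes. Of 89 protein-coding clone genes, 34 were called lower and 1 higher, with a median log2 fold change of −0.47. Of 180 long non-coding clone genes tested, 75 were called lower and 0 higher, with a median of −0.50. At an unadjusted p under 0.05, 99 long non-coding clone genes were lower and 3 higher in limma, and edgeR and DESeq2 each called 1 of them higher. The protein-coding genes outside the clone genes were called lower in 6.77% of cases and higher in 6.43%, with a median of 0.04. The long non-coding genes outside them were called lower in 23.6% of cases and higher in 2.72%, with a median of −0.28. Of 125 pseudogenes tested outside the clone genes, 16 were called lower and 8 higher, with a median of −0.06. The 12 pseudogenes held 4 that were called lower, which were 1700019M22Rik, 1700003E24Rik, 1700022A21Rik and 1700073E17Rik, with log2 fold changes of −1.26, −1.22, −0.77 and −0.71 (named because they are so few, after their values were seen).

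The steepest fall was that of 1700012A03Rik (chr6:32050288-32059062, plus strand, GRCm38), a protein-coding gene of 3 exons with a short open reading frame of unknown function. Its normalized counts were 4913, 5221, 5633, 4086 and 3234 in the 5 WT libraries and 579, 667, 638, 373 and 193 in the 5 KI libraries. The highest KI library stood far below the lowest WT library, and within each genotype libraries 4 and 5 were the lowest. The WT mean was 9.42 times the KI mean, with a log2 fold change of −3.34 (SE 0.28) and an adjusted p of 6.10e-07. The promoter of this gene is shown because it belongs to the largest fall, as 250 bases before the RefSeq start and 50 after it (chr6:32050038-32050337, plus strand, GRCm38.p6), and it held none of the motifs searched for below, so that no letter is in capitals.
1700012A03Rik: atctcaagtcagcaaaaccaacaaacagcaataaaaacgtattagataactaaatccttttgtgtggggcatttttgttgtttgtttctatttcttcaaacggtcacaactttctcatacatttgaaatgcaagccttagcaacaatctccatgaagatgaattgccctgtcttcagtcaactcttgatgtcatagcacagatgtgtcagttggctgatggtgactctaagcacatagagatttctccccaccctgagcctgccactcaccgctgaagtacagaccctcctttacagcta

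Other protein-coding clone genes were close behind. 1700020A23Rik (chr2:130405259-130406074), a gene of 2 exons, had 717, 834, 965, 579 and 542 normalized counts in WT and 109, 109, 97.8, 73.1 and 41.4 in KI, which is a log2 fold change of −3.11 (SE 0.24, adjusted p = 3.23e-07). 1700016H13Rik (chr5:103648587-103655732, minus strand) fell from 3386 ± 817 to 447 ± 158 normalized counts (mean ± SD, n = 5 each), and its log2 fold change was −2.97 (SE 0.24). Both genes showed the same order of libraries as 1700012A03Rik, with libraries 4 and 5 below libraries 1 to 3 in WT and in KI. 1700042G07Rik (chr4:116173372-116174297), which RefSeq also lists as P3r3urf, an upstream reading frame gene next to Pik3r3, fell from 1464 ± 352 to 301 ± 110 normalized counts. Its log2 fold change was −2.36 (SE 0.27), but its transcript has a near-identical copy in Gm49337, and reads of the pair could have been divided between them. 1700109H08Rik (chr5:3571716-3584341) had 603, 556, 446, 377 and 436 normalized counts in WT and 106, 105, 105, 94.2 and 75.4 in KI. Its KI libraries were the tightest of the 12 largest falls and its log2 fold change of −2.29 had an SE of 0.15 (adjusted p = 6.16e-08). It overlaps Rbm48, an RNA-binding motif gene of the other strand whose log2 fold change was −0.12 (adjusted p = 0.489), and whether the counting used strand is not given in the sources used here. 1700015G11Rik (chr7:52011680-52015716, minus strand), also listed as Ccdc179, a small coiled-coil domain gene, had 1030, 1067, 1052, 401 and 380 normalized counts in WT and 207, 207, 259, 102 and 64.4 in KI. Here the difference between WT libraries was itself over 2-fold, and the lowest WT library was still above the highest KI library.

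Long non-coding clone genes made up the rest of the largest falls. 1700009J07Rik (chr10:77893420-77896111), an intergenic RNA of 1 exon, had 1883, 2244, 2243, 1174 and 1156 normalized counts in WT and 233, 249, 235, 182 and 98.4 in KI. Its WT mean was 8.72 times its KI mean, a log2 fold change of −3.13 (SE 0.25, adjusted p = 4.51e-07), and the size of the fall was like in libraries 1 to 3 (−3.14) and in libraries 4 and 5 (−3.11). 1700029B22Rik (chr7:131146439-131150578) had 413, 458, 461, 214 and 228 in WT and 23.9 to 70.0 in KI (median 53.0). The KI range lay below the WT range, with a log2 fold change of −2.92 (SE 0.32). 1700003P14Rik (chr13:118556168-118588629), an intergenic RNA of 4 exons, fell from 404 ± 113 to 71.8 ± 21.3 normalized counts, a log2 fold change of −2.48 (SE 0.23). 1700031M16Rik (chr15:98398445-98416135) fell from 796 ± 320 to 180 ± 59.1, a log2 fold change of −2.10 (SE 0.29), and GENCODE types it as a transcribed pseudogene where RefSeq has a long non-coding RNA. 1700096J18Rik (chr11:109346867-109353651) was the least abundant of the 12, at 152 ± 54.6 normalized counts in WT and 31.1 ± 13.3 in KI, with a log2 fold change of −2.31 (SE 0.34). A near-identical copy of its transcript exists in Gm11696, which makes its own share of the reads uncertain.

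**Figure D2:**
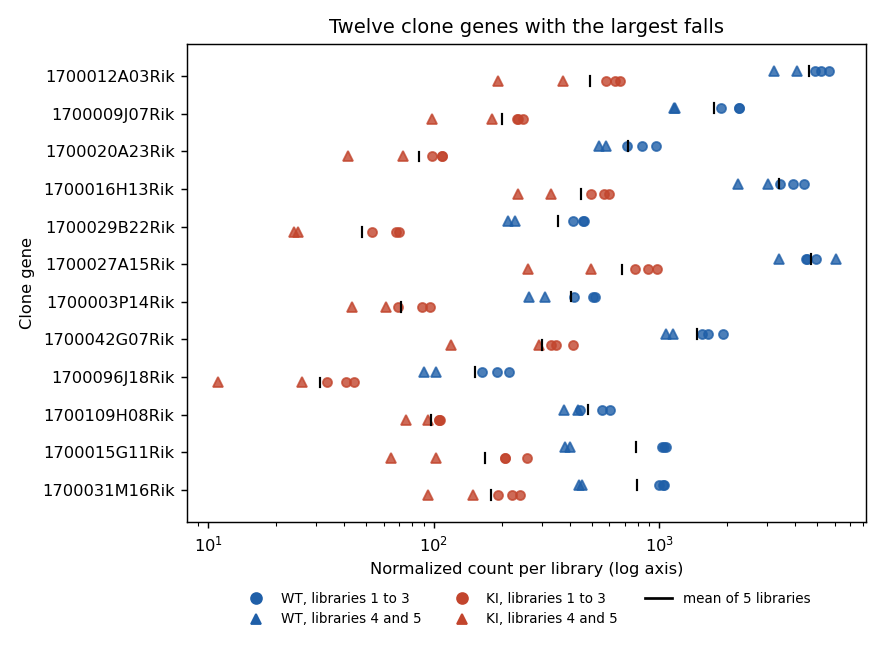
Normalized counts (x axis, log scale) of the 12 clone genes with the largest falls (y axis) in each of the 10 libraries; circles are libraries 1 to 3, triangles libraries 4 and 5, blue WT, red KI, and the vertical tick is the mean of 5 libraries. No KI point reaches a WT point of its gene, and KI library 5 is the lowest of the KI libraries for each of the 12.

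1700027A15Rik (chr1:73016036-73025508, plus strand) was both among the largest falls and among the most abundant clone genes. This long non-coding RNA of 2 exons starts 137 bases from the start of Tnp1 on the other strand, the gene of transition protein 1, a small basic protein of elongating spermatid nuclei. Normalized counts of 1700027A15Rik were 4473, 4526, 4963, 6038 and 3383 in WT and 779, 890, 976, 499 and 262 in KI. The groups did not overlap, and WT library 4 was the highest here although it was among the 2 lowest WT libraries for the other 11 large falls. The log2 fold change was −2.90 (SE 0.28, adjusted p = 3.38e-06), with −2.40 in libraries 1 to 3 and −3.64 in libraries 4 and 5. The difference between these was −1.24 and did not pass the threshold in limma (adjusted p = 0.0904) or in edgeR (adjusted p = 0.0775). Tnp1 had 32199, 33293, 39481, 19499 and 15651 normalized counts in WT and 7669, 9585, 9599, 4549 and 2410 in KI, so that its WT library 4 was lower than its WT libraries 1 to 3, and its log2 fold change was −2.14 (SE 0.35, adjusted p = 0.000357). The segment between the 2 starts is shown because it lies before both genes (chr1:73015900-73016035, plus strand, 136 bases, GRCm38.p6), and beside it the segment between 1700029B22Rik and 4933402N03Rik, whose starts are 156 bases apart (chr7:131146284-131146438, plus strand). Neither holds a searched motif, and none of their letters is therefore in capitals.
1700027A15Rik to Tnp1: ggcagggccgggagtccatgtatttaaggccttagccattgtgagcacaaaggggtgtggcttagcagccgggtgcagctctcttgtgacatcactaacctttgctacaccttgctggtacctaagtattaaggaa
1700029B22Rik to 4933402N03Rik: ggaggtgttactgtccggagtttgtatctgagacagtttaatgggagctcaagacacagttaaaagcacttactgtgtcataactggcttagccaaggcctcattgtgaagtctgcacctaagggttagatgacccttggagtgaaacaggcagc

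Head-to-head neighbours were followed for all clone genes. Of 33 clone genes whose start lies within 1000 bases of the start of a listed gene on the other strand, 12 were called lower, and in 4 of these 12 pairs the partner was called lower as well, where 8.22% of all genes tested were. These were Tnp1, 4933402N03Rik, 4930579P08Rik and Tfb1m. 4933402N03Rik, a protein-coding clone gene of another series, had 282, 368, 348, 179 and 244 normalized counts in WT and 117, 170, 106, 111 and 97.5 in KI, which did not overlap, with a log2 fold change of −1.22 (SE 0.20, adjusted p = 0.000341). Its neighbour 1700029B22Rik stood at −2.92 on the same scale. Tfb1m, a mitochondrial ribosomal RNA methyltransferase, fell from 703 ± 41.5 to 433 ± 40.3 normalized counts, a log2 fold change of −0.70 beside −0.76 for 1700102H20Rik. The pair of long non-coding genes 1700030O20Rik and 4930579P08Rik had log2 fold changes of −0.68 and −0.85. The other 8 partners were not called by limma, edgeR or DESeq2 (at an unadjusted p under 0.05, 2 were lower and 1 was higher). The 2 lower ones, Pdp1 (−0.53, adjusted p = 0.00102) and Tbc1d21 (−0.58, adjusted p = 0.0156), had lower KI libraries throughout. The higher one was Nab2 (0.33, adjusted p = 0.0234). Each of these passed the adjusted p in limma and missed the fold threshold. Wdr54, whose start is 25 bases from that of 1700003E16Rik, had a log2 fold change of −0.02 (adjusted p = 0.948) where the clone gene was called lower. Among the 21 pairs whose clone gene was not called, 2 partners were called lower, Pom121l12 at −0.63 and Ankrd53 at −1.14. The genes of this paragraph that are not among the 20 chosen by rule were named after their values were seen. For 19 clone genes called lower that overlap a listed gene of the other strand, limma, edgeR and DESeq2 each called 0 of the overlapping genes. Over all genes tested limma called 8.22% lower. At an unadjusted p under 0.05 each tool had 3 of them lower and 1 higher. The 3 lower ones, Spata17 (−0.33), Pla2g7 (−0.36) and Abhd18 (−0.42), passed the adjusted p in limma and missed the fold threshold. Where the clone gene was not called, the overlapping genes Arl9 (−2.58), Gabarapl1 (−1.09) and D630003M21Rik (−0.66) were called lower and 4930539E08Rik (0.60) higher.

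**Figure D3:**
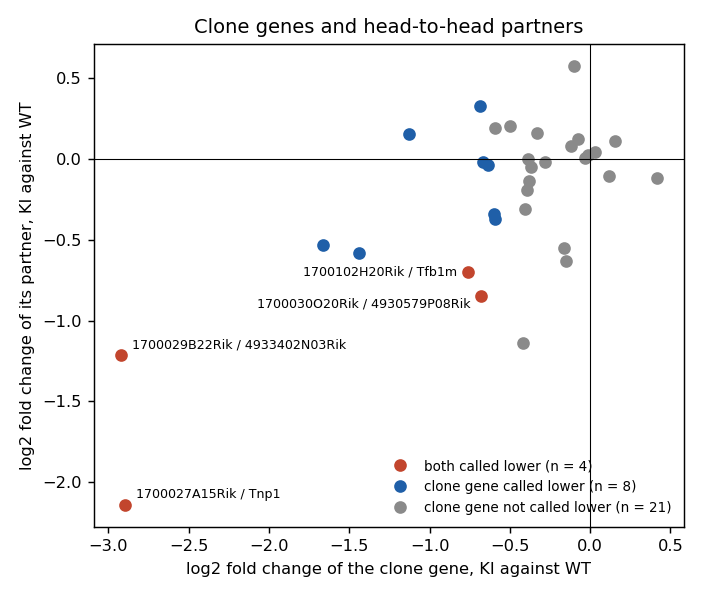
Log2 fold change of the head-to-head partner (y axis) against that of the clone gene (x axis), KI against WT, for 33 pairs with starts within 1000 bases. The 4 pairs in which both genes were called lower are red and labelled, 8 pairs with the clone gene alone called lower are blue, and 21 pairs with a clone gene not called are grey.

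Abundant clone genes were ranked per length. The 8 with the highest WT count per kilobase of longest transcript lay between 6247 (1700020D05Rik) and 10138 (1700003F12Rik) normalized counts per kilobase, and 5 of them were called lower. 1700009N14Rik (chr4:39450293-39451778), a protein-coding gene of 2 exons, had 10331, 11061, 11031, 7247 and 7546 normalized counts in WT and 2693, 2620, 2743, 2721 and 1891 in KI. Its KI libraries 1 to 4 lay within a narrow band and library 5 below it, and the log2 fold change was −1.89 (SE 0.14, adjusted p = 3.23e-07). 1700003F12Rik (chr2:154548904-154550048) fell from 7137 ± 1049 to 3591 ± 1116 normalized counts, a log2 fold change of −1.04 (SE 0.19). It overlaps Necab3 on the other strand, which had a log2 fold change of 0.17. The long non-coding 1700008K24Rik (chr17:49112264-49113533, minus strand) had 7603, 7611, 8155, 7964 and 6814 in WT and 4448, 5154, 4827, 4605 and 3545 in KI, and its log2 fold change was −0.77 (SE 0.11), or −0.54 and under the fold threshold when scaled to library totals. Here libraries 4 and 5 of WT did not stand apart from libraries 1 to 3, and the genotypes did not overlap. 1700003E16Rik (chr6:83156404-83162975) fell from 13109 ± 1197 to 8301 ± 1116, a log2 fold change of −0.66 (SE 0.11), which did not pass the threshold in libraries 4 and 5 alone (−0.51, adjusted p = 0.0542). It was under the fold threshold when scaled to library totals (−0.43) or to the upper quartile (−0.57).

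The other 3 of these abundant clone genes were not called. 1700029F12Rik (chr13:97021864-97035254, minus strand) had 9664 ± 325 normalized counts in WT and 7133 ± 802 in KI. All its KI libraries were below its WT libraries, and its log2 fold change of −0.44 (adjusted p = 0.00279) was under the fold threshold and did not pass the adjusted p in libraries 4 and 5 alone (−0.36, adjusted p = 0.179). 1700123L14Rik (chr6:96164503-96166205, minus strand), which is protein-coding in GENCODE and a pseudogene in RefSeq, ranged from 13141 to 15741 with a median of 14093 normalized counts in WT, and from 12164 to 15391 with a median of 12977 in KI. These overlapped, and the log2 fold change was −0.08 (SE 0.10, adjusted p = 0.619). 1700020D05Rik (chr19:5502769-5503787, minus strand) had 6379 ± 531 normalized counts in WT and 6501 ± 712 in KI, with a log2 fold change of 0.02 (SE 0.10, adjusted p = 0.893), and it lies within the span of Snx32 on the same strand. The signs of 1700123L14Rik and 1700020D05Rik changed with the scaling or the libraries used.

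A rise was rare among the clone genes, and no member met the rule for a large rise without overlap. The 1 clone gene called higher was 1700080O16Rik (chrX:51968695-51972772, minus strand), a protein-coding gene of 4 exons, which had 409, 481, 522, 350 and 334 normalized counts in WT and 773, 775, 735, 648 and 356 in KI. KI library 5 lay within the WT range and the other KI libraries above it, with a log2 fold change of 0.62 (SE 0.20, adjusted p = 0.0344). With the library number as a block in the fit, 122 clone genes were called lower and 3 higher (8.73% and 6.93% of all genes tested). The call of 1700080O16Rik was lost without the block when any one of WT libraries 1, 4 and 5 or KI libraries 1, 2, 3 and 4 was left out, with adjusted p from 0.0625 to 0.0855, and in libraries 4 and 5 alone (0.49, adjusted p = 0.219). 1700017B05Rik (chr9:57252322-57262599, minus strand) was the 1 clone gene whose KI libraries all lay above its WT libraries, at 2072, 2314, 2477, 2006 and 2348 normalized counts in WT and 2507, 2773, 2658, 3283 and 3481 in KI. Its log2 fold change of 0.38 (SE 0.11, adjusted p = 0.0164) was under the fold threshold. In libraries 1 to 3 alone it was 0.21 and did not pass (adjusted p = 0.0574), and in libraries 4 and 5 alone it was 0.64 (adjusted p = 0.0126). Both genes were picked out after their values were seen. The promoter of 1700080O16Rik is shown as that of the gene called higher (chrX:51972723-51973022, minus strand, GRCm38.p6), with a match to TGACGT in capitals.
1700080O16Rik: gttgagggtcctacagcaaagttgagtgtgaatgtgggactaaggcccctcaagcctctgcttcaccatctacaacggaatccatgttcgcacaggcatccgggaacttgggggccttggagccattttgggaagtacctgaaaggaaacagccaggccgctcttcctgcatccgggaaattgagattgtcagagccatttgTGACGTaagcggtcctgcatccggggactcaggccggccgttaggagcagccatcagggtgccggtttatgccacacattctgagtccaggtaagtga

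The clone genes together took 1.77% to 2.04% of all normalized counts in the 5 WT libraries and 1.24% to 1.64% in the 5 KI libraries. The median deviation of the clone genes from their WT mean, on the log2 scale, was 0.07, 0.14, 0.08, −0.02 and −0.20 in WT and −0.41, −0.40, −0.34, −0.48 and −1.05 in KI. All KI libraries were thus below all WT libraries, and KI library 5 stood apart from the other KI libraries, while the median over all genes tested stayed between −0.01 and 0.03 in every library. KI library 5 was the lowest KI library for 223 of the 281 clone genes (79.4%, beside 31.1% of all genes tested). Among genes called lower, it was the lowest for 89.4% of clone genes and 67.1% of all genes. Without it, 90 clone genes were called lower and 4 higher (7.34% and 5.46% of all genes tested), and the median log2 fold change was −0.41.

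**Figure D4:**
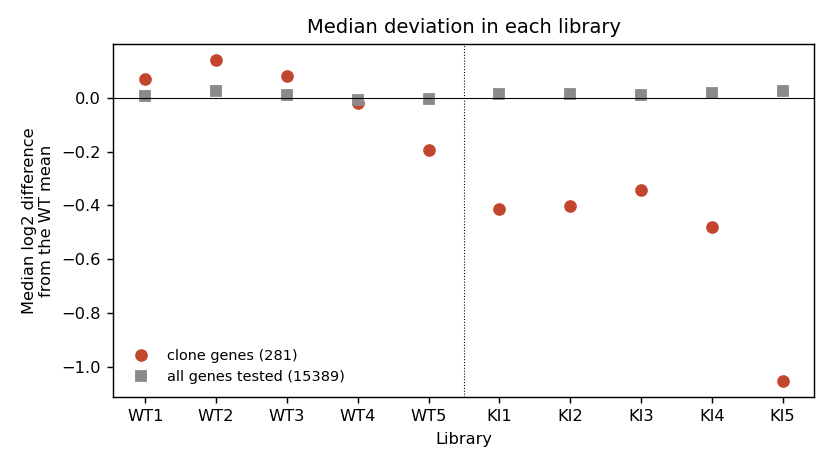
Median log2 difference from the WT mean (y axis) in each library (x axis) for the 281 clone genes tested (circles) and all 15389 genes tested (squares). The clone genes of KI libraries 1 to 4 sit between −0.48 and −0.34 and those of KI library 5 at −1.05, while all genes stay near 0.

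Libraries 1 to 3 and libraries 4 and 5 were compared for the clone genes. WT libraries 4 and 5 were both below WT libraries 1 to 3 for 115 clone genes tested, which is 40.9% beside 20.9% of all genes tested, and KI libraries 4 and 5 were both below KI libraries 1 to 3 for 134, which is 47.7% beside 24.7% of all genes tested. Among genes called lower, that order held for 61.9% of clone genes and 57.1% of all genes in WT. In KI it held for 56.6% and 41.5%. The median difference of libraries 4 and 5 from libraries 1 to 3 over the clone genes tested was −0.21 in WT and −0.40 in KI. Within libraries 1 to 3 the median log2 fold change of KI against WT was −0.45, and within libraries 4 and 5 it was −0.65. The difference of the genotype effect between the sets passed an adjusted p of 0.05 for 0 clone genes in limma and 0 in edgeR, and 47 had an unadjusted p under 0.05 in each, which is 16.7% in limma beside 16.1% of all genes tested.

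Markers of the cell types in the preparation were read beside these values. The 10 genes listed as markers of elongating spermatids (Tnp1, Tnp2, Prm1, Prm2, Prm3, Oaz3, Odf1, Smcp, Gapdhs and Akap4) were all called lower, with a median log2 fold change of −2.39. The paper's scheme has Tnp2 and Prm2 mRNA already in round spermatids before translation, so that this list does not follow elongating cells alone. The summed normalized counts of the 10 genes were 382649, 427423, 458368, 267549 and 257768 in WT and 67234, 74866, 74347, 57954 and 38445 in KI. In both genotypes libraries 4 and 5 were below libraries 1 to 3 in this sum, and the summed round spermatid and spermatocyte markers had that order too. KI library 5 was the lowest for the elongating and the round spermatid sums, and KI library 4 for the spermatocyte sum. Of 8 round spermatid markers, 2 were called lower, Tssk3 (−2.20) and Crem (−0.60), and 0 higher, with a median of −0.50 and sums of 17474 to 21200 in WT and 8725 to 15161 in KI. All 8 had a negative log2 fold change, 5 had no overlap between genotypes, and Spaca1 (−0.53, adjusted p = 0.00604), Catsper3 (−0.58, adjusted p = 0.000761) and Spata46 (−0.41, adjusted p = 0.0213) passed the adjusted p but not the fold threshold in limma. None of 8 spermatocyte and 8 spermatogonial markers was called by limma, edgeR or DESeq2, with medians of −0.11 and 0.15, and at an unadjusted p under 0.05 there were 1 lower spermatocyte marker and 1 lower and 1 higher spermatogonial marker. Both lower ones, Spo11 (−0.41, adjusted p = 0.0232) and Gfra1 (−0.48, adjusted p = 0.0202), passed the adjusted p in limma and missed the fold threshold. Spermatocyte markers summed to 19212 to 26388 in WT and 18835 to 22782 in KI, and spermatogonial markers to 1545 to 2220 and 1806 to 2161. Sertoli cell markers had 0 of 8 called by the same 3 tools, with a median of 0.13 (sums of 2198 to 3846 and 2752 to 3825). All 8 had a positive log2 fold change, and 1 was higher at an unadjusted p under 0.05. That marker, Gata4 (0.42, adjusted p = 0.0408), passed the adjusted p in limma and missed the fold threshold. Markers of Leydig cells (4 of 7), macrophages (5 of 8) and peritubular myoid cells (2 of 4 tested, Cnn1 was too low) were called higher by limma and none lower, with medians of 0.69, 0.68 and 0.27. By edgeR 3, 5 and 1 were called higher, and by DESeq2 6, 5 and 2. The peritubular markers Myh11 (−0.30) and Tagln (−0.23) had negative values and were not called. RNA of somatic cells was thus also present in the germ cell fraction. Leydig markers summed to 10875 to 19504 in WT and 15729 to 27046 in KI, macrophage markers to 735 to 929 and 1021 to 1426, and peritubular markers to 120 to 208 and 191 to 236. No defining marker was at 0 in any list, and the part of the cell mixture in the lower clone genes was not tested.

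Other genes with provisional Rik names served as a comparison, and the difference from the clone genes was not tested. Of 697 such genes tested, 141 (20.2%) were called lower and 23 higher, with a median log2 fold change of −0.21. The prefix 4930, also a testis clone series and the next largest in number of genes, had 80 of 253 genes (31.6%) called lower, 7 higher and a median of −0.45. The prefix 4933 had 24 of 87 lower with a median of −0.31, and the prefix 4921 had 7 of 21 (33.3%) with a median of −0.43. The prefixes 1110, 1810, 2310, 2610 and 2810 had 2 of 16, 1 of 13, 0 of 12, 2 of 15 and 2 of 14 called lower. The prefixes 4931 and 4932, testis clone series like 4930 and 4933, had 3 of 20 (15.0%) and 1 of 11 (9.09%) called lower. The prefix E130 had 0 of 10.

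**Figure D5:**
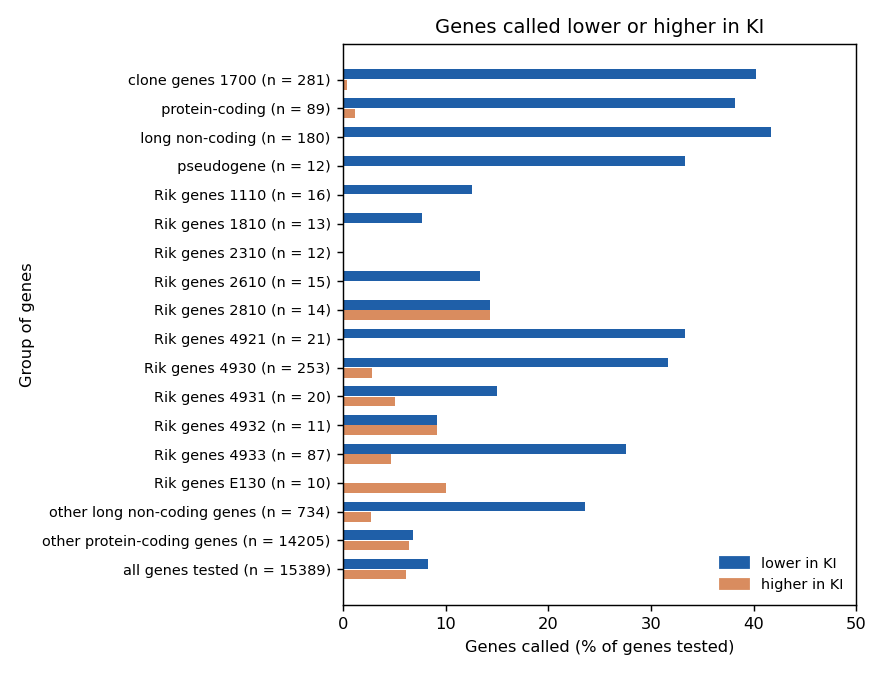
Percent of genes tested that were called lower (blue) or higher (orange) in KI, by group of genes (y axis, with the number tested); a call needs an adjusted p under 0.05 and a 1.5-fold difference. The 1700 clone genes reach 40.2% lower and 0.356% higher, and all genes tested 8.22% and 6.13%.

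The lower clone genes were spread over the genome and over levels of expression. The 281 clone genes tested lie on 21 chromosomes, the median log2 fold change was negative on each, and 20 chromosomes held at least 1 gene called lower. On the 17 chromosomes with at least 10 clone genes tested, between 24.0% and 60.0% were called lower. On the X chromosome, whose genes are silenced in meiosis, 3 of 9 clone genes were lower and 1 higher, where all X-linked genes tested had 47 lower and 89 higher of 650. In 4 groups of like size by mean count, from the lowest to the highest, 26 of 71, 26 of 70, 31 of 70 and 30 of 70 clone genes were called lower. Among the other genes in the same ranges of mean count, 6.64%, 5.70%, 5.99% and 11.8% were called lower, with the highest share in the top range. Clone genes with 2 exons in the longest transcript were called lower in 34 of 58 cases, those with 1 exon in 11 of 32, and those with at least 3 exons in 64 of 182. The 86 protein-coding clone genes with a coding length in GENCODE encode between 71 and 1183 codons (without the stop codon), with a median of 196 for the 34 called lower and 218.5 for the 52 others. Of clone genes that overlap a listed gene 21 of 57 were called lower, of those that overlap none 92 of 224, and 9 of the 17 clone genes with a near-identical copy were called lower.

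Some clone genes carry a gene name in RefSeq by now, and they were taken by that name and not by value. Of 9 clone genes matched under another RefSeq symbol, 8 have a name that is not a clone number. 1700042G07Rik (P3r3urf) and 1700015G11Rik (Ccdc179), both called lower, are not among these 8 and are given above. 1700024P04Rik is H2bl1, a histone H2B-like protein of sperm, and had 1968, 2275, 2290, 977 and 1016 normalized counts in WT and 588, 571, 541, 382 and 209 in KI. The groups did not overlap and the log2 fold change was −1.89 (SE 0.30, adjusted p = 0.000300). 1700015F17Rik (Pttg1ip2) fell from 795 ± 95.9 to 387 ± 77.8 normalized counts, a log2 fold change of −1.05. 1700001C02Rik (Fam166c) fell from 1121 ± 113 to 661 ± 154, and 1700017D01Rik (Ms4a20), of the membrane-spanning family 4A, from 3659 ± 513 to 2262 ± 336. The remaining genes of these 8 were not called, at −0.53 for 1700025F22Rik (Ms4a19), −0.33 for 1700061G19Rik (Acsbg3), −0.31 for 1700023F06Rik (Efcab15) and 0.05 for 1700021F05Rik (Mtres1, a mitochondrial transcription rescue factor).

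Counts were low for part of the list. In 9 clone genes at least 1 library held no more than 3 reads. The lowest was 1700083H02Rik, a long non-coding RNA with 30.3, 35.8, 53.1, 59.2 and 42.4 normalized counts in WT and 14.2, 15.6, 10.3, 6.73 and 0 in KI, the 0 allowing up to 2.76. Its log2 fold change of −2.57 (SE 0.60, adjusted p = 0.00561) thus rests on few reads in KI. 1700024F13Rik had 38.7, 53.2, 50.7, 15.0 and 12.2 in WT and 11.5, 5.21, 4.12, 4.81 and 0.920 in KI, and the lowest WT library was only slightly above the highest KI library. Both were looked at for their low counts.

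Promoters were compared as sequence. RefSeq promoters of 300 bases (GRCm38.p6) were found for 224 of the 282 clone genes, 243 promoters in all, of which 105 belong to 93 genes called lower. The full cAMP response element TGACGTCA, the site bound by CREM in spermatids, was in 2.06% of clone gene promoters, 0.952% of those of genes called lower, 2.91% of those of all genes tested and 1.79% of all promoters of that length. TGACGT, which lies within that element, was in 7.41%, 6.67%, 10.5% and 7.51%, TATAAA in 11.5%, 13.3%, 7.58% and 13.6%, and CCAAT in 37.9%, 34.3%, 37.8% and 37.4% of the same groups, counting both strands. The median GC content was 51.0% in clone gene promoters, 49.7% in those called lower, 59.7% in those of all genes tested and 52.7% in all promoters, and the median number of CpG pairs was 5, 3, 19 and 7. Except for CCAAT, clone gene promoters were thus nearer to all promoters than to those of the genes tested. Promoters of other genes called lower had a median GC content of 54.7% and a median of 9 CpG pairs, and 3.51% of them held TGACGTCA. The 0.952% for TGACGTCA stands for 1 of the 105 promoters of clone genes called lower. Promoters of an abundant clone gene called lower and of a large fall are shown for their CCAAT matches, in capitals on the reverse strand as ATTGG, with 2 matches in 1700008K24Rik (chr17:49113484-49113783, minus strand) and 1 in 1700009J07Rik (chr10:77893170-77893469, plus strand). A match of letters does not show that a factor binds there.
1700008K24Rik: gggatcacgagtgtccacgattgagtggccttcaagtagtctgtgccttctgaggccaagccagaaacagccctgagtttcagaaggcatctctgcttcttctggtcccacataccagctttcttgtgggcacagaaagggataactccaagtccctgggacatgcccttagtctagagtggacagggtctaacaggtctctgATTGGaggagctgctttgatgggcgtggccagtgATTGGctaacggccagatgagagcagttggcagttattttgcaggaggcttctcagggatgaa
1700009J07Rik: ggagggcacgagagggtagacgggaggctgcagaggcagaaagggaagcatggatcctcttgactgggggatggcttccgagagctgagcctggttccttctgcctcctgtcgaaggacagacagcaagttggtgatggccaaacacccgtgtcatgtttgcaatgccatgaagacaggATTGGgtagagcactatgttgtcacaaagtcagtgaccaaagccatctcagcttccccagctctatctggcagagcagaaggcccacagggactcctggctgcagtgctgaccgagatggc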

How the data were processed

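The authors isolated germ cells and sequenced poly(A) RNA of 5 WT and 5 KI mice, aligned the reads to mm10 with STAR in Partek Flow, assigned them to RefSeq genes by the E/M method of Partek, and deposited a normalized signal per gene and library, which is the read count divided by a DESeq2 size factor. That step was checked on the values: within each library the values were whole multiples of 1 read (100% of values under 5000 reads, tolerance 0.1 read), and these whole reads gave the totals, the filter and the alternatives. Versions of STAR and Partek are not given in the sources used here. Every column was assigned to a library by its label. Library totals, the floor of 3 reads and the size factors limit the precision of low counts.

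The test was limma (version 3.58.1 under R 4.3.3) with a trended variance, run on log2(value + 1) after filterByExpr of edgeR (version 4.0.16) on the whole reads, with Benjamini-Hochberg adjustment of the p-values over the 15389 genes. Fold changes are on that log2 scale and understate changes of genes with few counts. In a call the thresholds were an adjusted p of 0.05 and a 1.5-fold difference, and statements on single named genes in the closing section use the adjusted p alone. edgeR's quasi-likelihood test and DESeq2 (version 1.42.0) on the whole reads were alternatives, with other scalings, filters, pseudocounts and thresholds, a replicate block, a term for the library set, each set alone, and each library left out in turn. Simulated data for KI against WT held 15389 genes, 200 of them changed. There limma recovered 86 of 102 genes changed 2-fold and 97 of 98 changed 4-fold, with 7 false calls. These counts used an adjusted p under 0.05 with no fold threshold, and the simulated libraries had no split into library sets. They therefore do not give the error rate of the calls above. The labels name each library as a separate sample of its genotype, and between replicates the chi-square over its degrees of freedom ranged from 2.66 to 46.6, which shows no repeated library.

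Same-numbered WT and KI libraries deviated together after genotype means were removed (r = 0.306, 0.105, 0.280, 0.216 and 0.462 for numbers 1 to 5). The mean r with other numbers of the same library set was 0.123, 0.11, 0.163, 0.141 and 0.141, so that number 2 stood no closer to its own number than to its set. A fit with the number as a block was therefore run, since each r was over 0.1. With the block, 122 clone genes were called lower and 3 higher.

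Classes, exons and lengths came from RefSeq (GRCm38.p6, 273 clone genes matched by symbol and 9 by an older symbol) and GENCODE (273 matched). Coordinates are the listed ones, with the listed stop less 1 as the last base. Near-identical copies were GENCODE transcripts of another gene with at least 95% identity over at least 50% of the length, searched for 273 clone genes. The genes named were the 12 largest falls and the 12 largest rises among clone genes called, at a mean of 100 or more normalized counts in the genotype with more, and no overlap between genotypes (12 and 0 qualified), the 8 most abundant per kilobase, and Ddx25. The clone genes, gene lists and tests were chosen with earlier results of these data known.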

Additional observations from a re-analysis of the deposited data

Results flagged for a closer look

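One value stood apart from the others of its group. 1700009N14Rik, one of the most abundant clone genes per length, had 1891 normalized counts in KI library 5, where the other KI libraries had 2620 to 2743, and the gap was wide for a group of 5 samples by Dixon's test. Of 44 groups of 5 libraries examined in this way, 1 was flagged, and chance alone flags about 1 in 20. KI library 5 was also the lowest KI library for most clone genes.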

How the results depend on the processing

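The count of clone genes called lower stayed within 1.5 times the value of 113 under 25 of 27 alternatives. The exceptions were library totals, with 70 lower and 8 higher, and a fold of at least 2, with 62 lower and 0 higher. Under library totals 20 protein-coding and 48 long non-coding clone genes and 89 other Rik genes were lower and 69 clone genes were lower with no overlap, and the median of all genes moved from 0.03 to 0.25. Under a fold of at least 2 those counts were 20, 40 and 70. The count of clone genes called higher was 2 under the upper quartile, edgeR (TMM or DESeq2 size factors), DESeq2 and no fold threshold, 3 under the replicate block and the term for library set, 6 in libraries 1 to 3 alone and 0 at an adjusted p under 0.01. Leaving out 1 library gave 90 to 118 lower (58 to 76 long non-coding, 29 to 40 protein-coding), 0 to 4 higher, 118 to 145 other Rik genes lower and a median of −0.54 to −0.41. The log2 fold change of 1700123L14Rik became 0.15 under library totals, 0.014 under the upper quartile and 0.052 in libraries 4 and 5 alone. That of 1700020D05Rik became −0.0060 in libraries 4 and 5 alone, and −0.026 to 0.065 with 1 library left out, with the values below 0 for WT library 5 and for KI libraries 2 and 4. The cause was not tested. Of the comparisons of named clone genes with an alternative, 485 kept direction and side of the adjusted p threshold, 11 lost it, 1 passed it and 7 changed sign. By fold, 1700003E16Rik was no longer called under library totals (−0.43) and the upper quartile (−0.57) nor 1700008K24Rik under library totals (−0.54), while 1700017B05Rik would be called under library totals (0.61) and in libraries 4 and 5 alone (0.64). The replicate block changed no call of a named clone gene. Counts of a few reads, as in 9 clone genes, limit what these libraries can show.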
